A study of Bos taurus with 38 samples.

Results

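SOCS2 (ENSBTAG00000012007) and FGFR2 (ENSBTAG00000014064) are 2 of the 24616 bovine genes counted in liver RNA-Seq libraries of dairy cows, and they were taken as the members of growth signalling that the study had listed by symbol. Liver was biopsied in 9 Holstein and 10 Jersey cows, once on each diet (38 libraries), on a low-concentrate control diet (C) and a high-concentrate diet (HC), given in turn in a crossover with 2 periods. Residual feed intake (RFI) is the feed eaten minus the feed predicted, so high-RFI cows are the less efficient ones. The Holsteins were 4 high-RFI and 5 low-RFI cows, the Jerseys 5 of each kind, their parity was 1 to 3, and the labels name no genotype or agent beyond breed and diet. Per its methods the study chose the cows in blocks of similar parity and stage of lactation, each with a cow of high and a cow of low RFI of each breed. Both genes passed the limit on low counts in both breeds.

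Growth hormone binds its receptor on hepatocytes and activates the JAK2 kinase and the transcription factor STAT5. SOCS2 is one of the genes that STAT5 switches on, and its protein is part of a ubiquitin ligase that limits signalling of the growth hormone receptor. FGFR2 is a receptor tyrosine kinase for fibroblast growth factors, and its splice forms differ in the ligands they bind. The values here are counts of a whole gene, so splice forms were not separated, and in a biopsy of whole tissue fewer cells of a type and less RNA per cell cannot be told apart.

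The levels are given as CPM, the read pairs of a gene scaled to a common total of read pairs on genes. Each library held 17472750 to 24478289 read pairs on genes, with a median of 19814536. SOCS2 had 74 to 2302 read pairs per library and FGFR2 had 912 to 2485. Of the 28 symbols listed for the growth hormone axis and the 32 listed for fibroblast growth factor signalling, only SOCS2 and FGFR2 could be paired with an identifier of the count tables, so the other genes of these pathways were not analysed here. The only hepatocyte marker that could be paired, CYP7A1, was counted at 37.97 to 1042 CPM. The lymphocyte markers CD3D and NKG7 were counted at 1.74 to 8.37 and 5.87 to 16.7 CPM.

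The libraries of 4 cows stood apart from their labels. In 55 genes that were on in some libraries and off in others (a gap of at least 1.2 in log2 CPM), the 2 libraries of each of the other 15 cows were in the same state in 46 to 55 genes. The libraries labelled as Jersey 10 on C and HC were in the same state in 34 of these genes, while those labelled as Jersey 10 and Jersey 17 were alike in 54 genes on HC and in 45 on C. The library labelled Jersey 14 on C was in the same state as the one labelled Holstein 15 on HC in 53 genes, against 39 for its own cow, and Jersey 14 on HC matched Holstein 15 on C in 54. In 60 genes that separate the breeds, chosen without the cow examined and without cows 14 and 15, the library labelled Jersey 14 on C was on the Holstein side in 46 and the one labelled Holstein 15 on C in 13. The other Holstein libraries were on that side in 38 to 49 genes and the Jersey libraries of cows other than 10, 14 and 17 in 10 to 20. No label was changed, and the comparisons are given with all cows and then without cows 10, 14, 15 and 17, by the log2 fold change, the exact test or r. Without these 4 cows the low-RFI Jerseys were cows 5 and 8, both of parity 3.

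SOCS2 differed widely between cows and, in the Jerseys, between the biopsies of the same cow. Over the 38 libraries it ranged from 3.91 to 116 CPM, 29.7-fold, with a median of 31.4. FGFR2 ranged from 44.6 to 134 CPM, 3.00-fold, with a median of 81.4. The plot of the level in each cow shows these values.

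**Figure D1:**
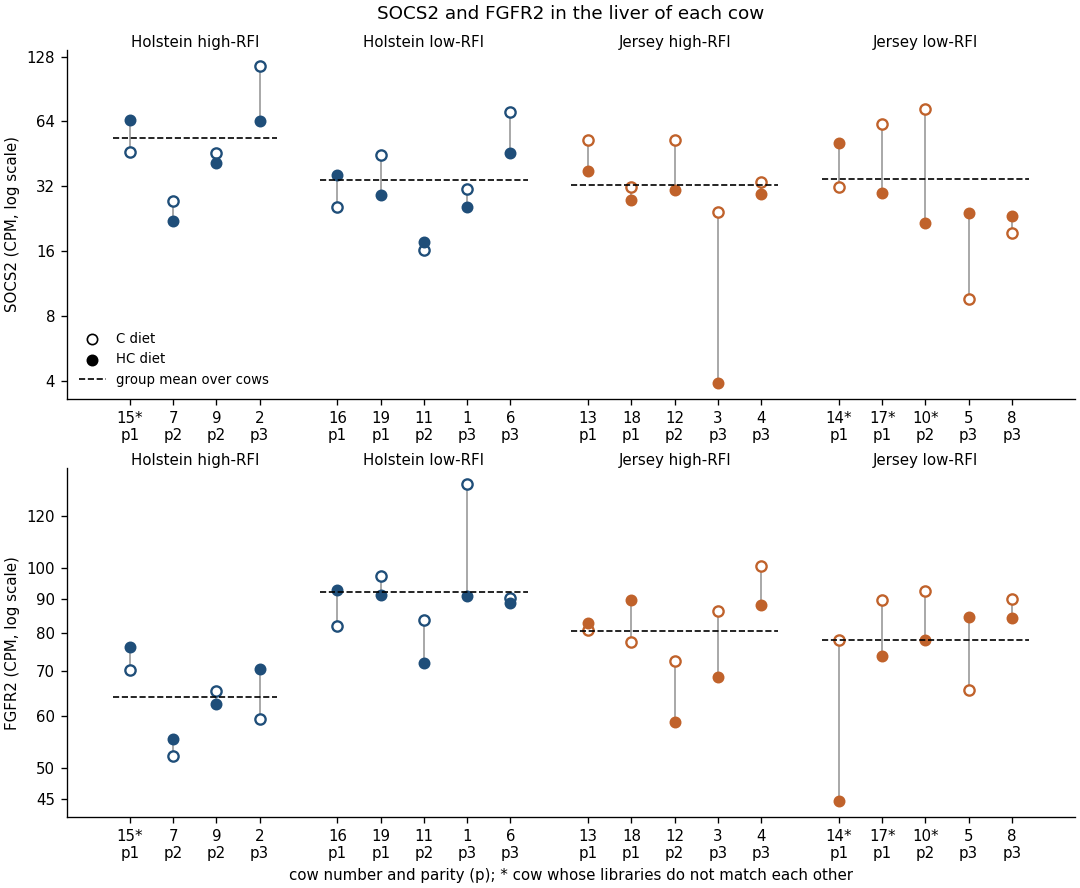
SOCS2 (top) and FGFR2 (bottom) in CPM on a log scale, for each cow on the C diet (open) and the HC diet (filled), with a grey line joining the libraries of a cow and a dashed line at the mean of the cows in a group. On C the 4 high-RFI Holsteins had 52.2 to 70.3 CPM of FGFR2, below each of the 5 low-RFI Holsteins, and SOCS2 of Jersey cow 3 was 3.91 CPM on HC.

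In the high-RFI Holsteins, SOCS2 on the C diet was 46.1 CPM in cow 15, 27.3 in cow 7, 45.8 in cow 9 and 116 in cow 2. On HC the same cows had 64.7, 22.2, 40.9 and 64.1 CPM. Cow 2 stood highest of all cows on C, and cow 7 lowest of its group on each diet. In the low-RFI Holsteins, SOCS2 on C was 25.7 CPM in cow 16, 44.7 in cow 19, 16.2 in cow 11, 31.1 in cow 1 and 70.7 in cow 6. On HC these cows had 36.1, 29.1, 17.6, 25.6 and 45.8 CPM. Cow 11 was the lowest and cow 6 the highest of this group on each diet, and the RFI groups overlapped on each diet.

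In the high-RFI Jerseys, SOCS2 on C was 52.5 CPM in cow 13, 31.6 in cow 18, 52.7 in cow 12, 24.4 in cow 3 and 33.5 in cow 4. On HC these cows had 37.7, 27.7, 30.8, 3.91 and 29.4 CPM. All 5 were lower on HC, and cow 3 had the lowest SOCS2 of the 38 libraries, 74 read pairs. In the low-RFI Jerseys, SOCS2 on C was 31.8 CPM in cow 14, 62.4 in cow 17, 73.1 in cow 10, 9.61 in cow 5 and 19.4 in cow 8. On HC these cows had 51.1, 29.7, 21.6, 24.1 and 23.4 CPM. Cows 14, 5 and 8 were higher on HC and cows 10 and 17 lower, and 3 of these 5 cows are among those whose libraries did not match.

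FGFR2 in the high-RFI Holsteins was 70.3 CPM in cow 15, 52.2 in cow 7, 65.3 in cow 9 and 59.3 in cow 2 on C. On HC it was 76.3, 55.4, 62.5 and 70.7 CPM in the same cows. Cow 7 had the lowest FGFR2 of the Holsteins on each diet. In the low-RFI Holsteins it was 81.97 CPM in cow 16, 97.3 in cow 19, 83.8 in cow 11, 134 in cow 1 and 90.4 in cow 6 on C. On HC these cows had 92.7, 91.2, 72.0, 90.9 and 88.8 CPM. On C every low-RFI Holstein was above every high-RFI one, which held in either direction for 1.64% of the Holstein genes, and on HC (1.53%) cow 11 was below cow 15.

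FGFR2 in the high-RFI Jerseys was 80.9 CPM in cow 13, 77.4 in cow 18, 72.6 in cow 12, 86.4 in cow 3 and 101 in cow 4 on C. On HC it was 82.7, 89.6, 58.8, 68.7 and 88.1 CPM. In the low-RFI Jerseys it was 78.0 CPM in cow 14, 89.6 in cow 17, 92.6 in cow 10, 65.7 in cow 5 and 90.1 in cow 8 on C. These cows had 44.6, 73.9, 78.2, 84.5 and 84.3 CPM on HC. The Jersey RFI groups overlapped on C, where 0.689% of the Jersey genes did not, and on HC, where 0.554% did not, and the library labelled cow 14 on HC was the lowest of the 38.

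Differences between cows made up most of the spread of both genes among the Holsteins and a smaller share among the Jerseys, where the biopsies of a cow also differed more in SOCS2. In log2 CPM with the diet means removed, the SD between biopsies of the same cow was 0.34 for SOCS2 and 0.17 for FGFR2 in the Holsteins, and the intraclass correlation, an estimate of the share of the variance that lies between cows, was 0.80 and 0.75. In the Jerseys the SD within cows was 0.81 for SOCS2 and 0.23 for FGFR2, with intraclass correlations of 0.24 and 0.22. The median intraclass correlation over all genes was 0.19 for Holsteins and 0.09 for Jerseys. SOCS2 was above 96.4% and FGFR2 above 94.5% of the Holstein genes in this measure, against 64.6% and 62.5% of the Jersey genes. The study had listed both genes from a difference between Holstein cows, and RFI group was not removed here. That choice favours genes that differ between Holstein cows, so these ranks and the contrast with the Jerseys are a description only. The SD of the cow means of SOCS2 was above that of 97.9% of the Holstein and 98.3% of the Jersey genes. The within-cow SD of SOCS2 was above that of 98.9% of the 11905 Jersey genes and of 82.3% of the 12025 Holstein genes, and among the 3444 Jersey genes within 2-fold of its level it was above 99.4%. Without the 4 cows it was 0.84 among Jerseys and 0.31 among Holsteins. Without Jersey cow 3 it was 0.66, above 97.6% of the genes. For FGFR2 the within-cow SD without the 4 cows was 0.18 in each breed, and the intraclass correlation was 0.76 among Holsteins and 0.26 among Jerseys.

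The effect of RFI was fitted in each breed with parity and diet in the model (edgeR's quasi-likelihood test, Benjamini-Hochberg adjusted p under 0.05 as the threshold, log2 fold change given as high- minus low-RFI with its standard error, SE). The study had picked both genes from the Holstein RFI contrast, so the Holstein values are a description and carry no test. The cow mean of FGFR2 was 64.0 ± 7.99 CPM in high-RFI Holsteins (SD, n = 4) against 92.3 ± 12.7 in low-RFI ones (n = 5), and the log2 fold change was -0.46 ± 0.10 (SE). The cow means ran from 53.8 to 73.3 in the former group and from 77.9 to 112 in the latter, with no overlap. Of the 12025 Holstein genes, 1.7% had cow means that did not overlap between the RFI groups. SOCS2 was 53.4 ± 27.5 CPM in the former group and 34.3 ± 15.3 in the latter, with overlapping cow means of 24.8 to 90.1 and 16.9 to 58.3 and a log2 fold change of 0.91 ± 0.22 (SE). Neither of the 2 genes was among the 0.0665% of genes that passed the threshold in the edgeR fit, and the values without cow 15 were -0.50 ± 0.12 for FGFR2 and 1.04 ± 0.27 for SOCS2.

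Neither gene differed between the Jersey RFI groups by more than the spread of the cows. Cow means of SOCS2 were 32.4 ± 12.1 CPM for high-RFI against 34.6 ± 14.4 for low-RFI Jerseys (SD, n = 5 each), and those of FGFR2 were 80.6 ± 10.4 against 78.1 ± 10.5. They overlapped for both genes, while 0.538% of the Jersey genes had none. High- minus low-RFI gave a log2 fold change of -0.06 ± 0.29 (SE) for SOCS2 and 0.05 ± 0.12 for FGFR2, with an edgeR adjusted p of 0.994 for each. Neither of the 2 genes passed the threshold, which 0.0336% of the Jersey genes did. Exact permutation of the RFI labels over the 10 Jerseys gave a two-sided p of 0.873 for SOCS2 and 0.675 for FGFR2. That test takes no account of the blocks of the study. With the 5 Jersey pairs of a block compared instead, high- minus low-RFI was -0.09 ± 0.46 in log2 CPM for SOCS2 (SD, exact sign-flip p = 0.750) and 0.06 ± 0.31 for FGFR2 (exact sign-flip p = 0.563), where 5 pairs cannot go below 0.0625. SOCS2 was higher for the high-RFI cow in 3 of the 5 pairs and FGFR2 in 4. Without cows 10, 14 and 17 the log2 fold changes were 0.23 ± 0.48 and 0.12 ± 0.13, so the direction of SOCS2 turned. The differences of cow means over these 7 Jerseys were 0.62 for SOCS2 (exact permutation p = 0.476) and -0.01 for FGFR2 (exact permutation p = 0.952). With the libraries of a cow summed, which leaves 1 value per cow, 0% of the genes passed for RFI in the Jerseys (461 at an unadjusted p under 0.05), 0% for parity in the Jerseys (1158) and 0.00832% for parity in the Holsteins, and neither of these genes did. The Holstein and Jersey differences were not tested against each other, since the Holstein contrast chose the genes.

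**Figure D2:**
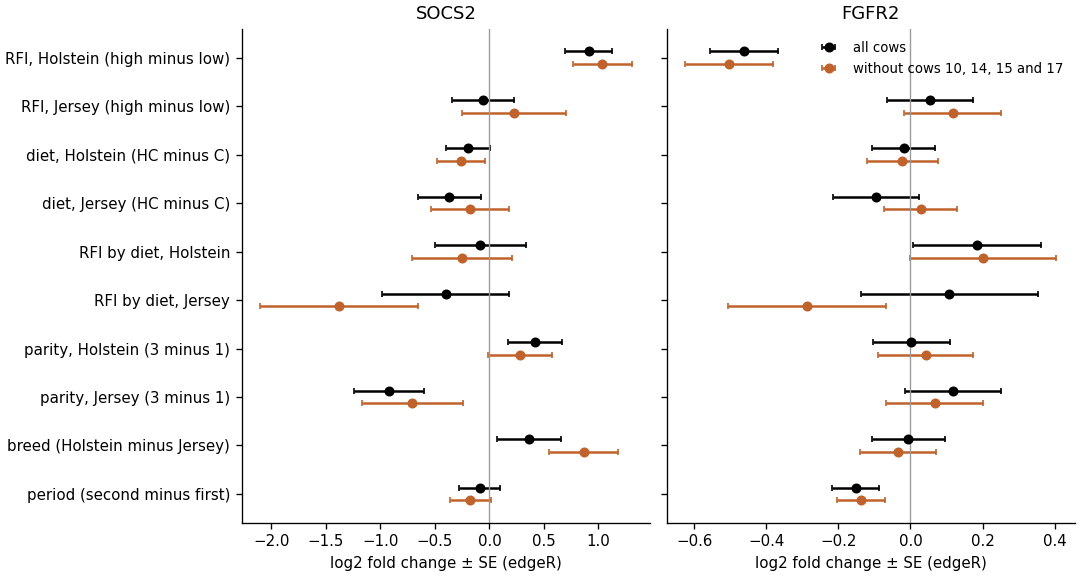
Log2 fold change of SOCS2 (left) and FGFR2 (right) with its standard error from edgeR for each comparison, with all cows (black) and without cows 10, 14, 15 and 17 (orange). The horizontal axes differ between the panels, and the RFI values of the Holsteins, 0.91 for SOCS2 and -0.46 for FGFR2, are from the contrast that the study used to list the genes.

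With the RFI value of each cow in place of its group, no relation was detected in the 10 Jerseys. Pearson's r with the cow mean of log2 CPM was -0.48 for SOCS2 (permutation p = 0.169, Spearman's coefficient = -0.25, permutation p = 0.491) and -0.02 for FGFR2 (permutation p = 0.953, Spearman's coefficient = -0.03, permutation p = 0.945). Without the 2 cows farthest from the median RFI, r was 0.22 for SOCS2 and 0.20 for FGFR2, so the value for SOCS2 rested on those cows. These were 2 of a family of 8 relations, and the Benjamini-Hochberg adjusted p was 0.953 for each Pearson value. Over the 7 Jerseys other than cows 10, 14 and 17, r was -0.30 for SOCS2 (exact permutation p = 0.524, Spearman's coefficient = -0.07, exact permutation p = 0.906) and -0.09 for FGFR2 (exact permutation p = 0.858, Spearman's coefficient = 0.18, exact permutation p = 0.713). In the 9 Holsteins r was 0.53 for SOCS2 and -0.49 for FGFR2, given as a description, and these were 0.53 and -0.48 without cow 15.

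Diet was compared within each breed as HC minus C. SOCS2 was lower on HC in 6 of 9 Holsteins and in 7 of 10 Jerseys, but the difference was within the spread of the cows. The mean of C and HC libraries was 47.1 ± 30.4 and 38.5 ± 17.2 CPM for the Holsteins, and for the Jerseys it was 39.1 ± 20.2 and 27.9 ± 12 CPM (SD). As HC minus C, the edgeR log2 fold change of the Holsteins was -0.20 ± 0.20 (SE, adjusted p = 0.783) and that of the Jerseys -0.37 ± 0.29 (adjusted p = 0.653). An exact sign-flip test of the differences within cows gave p = 0.262 over the 9 Holsteins, p = 0.229 over the 10 Jerseys and, by permutation of the signs over all 19 cows, p = 0.108. The mean difference over the 19 cows was -0.34 ± 0.89 in log2 CPM (SD). It was -0.44 without cow 5 (permutation p = 0.0281) and -0.45 without cows 14 and 15 (permutation p = 0.0434), but -0.22 without cows 10 and 17 (permutation p = 0.326). Cow 5 had the largest rise of SOCS2 on HC. Leaving out cow 5, or cows 14 and 15, was chosen after the values were seen, and these p-values are not adjusted. Over the 15 cows other than 10, 14, 15 and 17 it was -0.33 (permutation p = 0.155), with -0.28 for the 8 Holsteins (exact sign-flip p = 0.117) and -0.38 for the 7 Jerseys (exact sign-flip p = 0.5).

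FGFR2 changed less with the diet than SOCS2 in log2 terms. It was lower on HC in 5 of 9 Holsteins and in 7 of 10 Jerseys, with log2 fold changes of -0.02 ± 0.09 (SE, edgeR adjusted p = 0.964) and -0.10 ± 0.12 (adjusted p = 0.798). Neither of the 2 genes passed the threshold, which 0.782% of the Holstein and 0.37% of the Jersey genes passed for diet. An exact sign-flip test gave p = 0.703 for FGFR2 over the Holsteins and p = 0.137 over the Jerseys, and p = 0.0313 over the 9 Jerseys other than cow 5, where the mean difference was -0.22. Cow 5 had the largest rise of FGFR2 on HC and was left out after the values were seen, and that p is not adjusted. With the cow as a block, which raised these shares to 2.87% and 0.596%, neither gene passed either. Without the 4 cows, SOCS2 had log2 fold changes of -0.26 ± 0.22 for Holsteins and -0.18 ± 0.36 for Jerseys, and FGFR2 had -0.02 ± 0.10 and 0.03 ± 0.10. The mean differences of FGFR2 within these cows were -0.06 among Holsteins (exact sign-flip p = 0.594) and -0.05 among Jerseys (exact sign-flip p = 0.641), so the direction among Jerseys differed between the measures. The diet effect of Holsteins minus that of Jerseys was 0.29 for SOCS2 (permutation p = 0.507) and 0.13 for FGFR2 (permutation p = 0.352), and over the 15 cows it was 0.10 (permutation p = 0.834) and -0.01 (permutation p = 0.936).

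The interaction of RFI group and diet asked whether high-RFI cows respond to the diet otherwise than low-RFI cows. The mean HC minus C difference of SOCS2 in log2 CPM was -0.21 ± 0.55 in high-RFI against -0.18 ± 0.48 in low-RFI Holsteins (SD, n = 4 and 5), and -0.85 ± 1.02 against -0.11 ± 1.27 in the Jersey groups (n = 5 in each). For FGFR2 the same means were 0.10 ± 0.13 against -0.14 ± 0.27 for Holsteins, and -0.12 ± 0.23 against -0.21 ± 0.42 for Jerseys. Neither gene passed the edgeR threshold, and nor did any gene of either breed (0% called). An unadjusted p under 0.05 was found for 206 genes of the Holsteins and 443 of the Jerseys, and DESeq2 called 0 and 2 genes. Exact permutation of the RFI labels gave p = 0.984 for SOCS2 and p = 0.159 for FGFR2 in the Holsteins, and p = 0.365 and p = 0.690 in the Jerseys. Paired within the blocks of the study, the 4 Holstein pairs gave -0.13 ± 0.15 for SOCS2 and 0.25 ± 0.29 for FGFR2 (SD, exact sign-flip p = 0.250 for each, where 4 pairs cannot go below 0.125). The 5 Jersey pairs gave -0.74 ± 1.94 for SOCS2 (exact sign-flip p = 0.62) and 0.10 ± 0.63 for FGFR2 (exact sign-flip p = 0.750). The Jersey value of SOCS2 depended on cow 5 and on the cows whose libraries did not match. With single cows left out, the edgeR interaction ran from -0.82 (without cow 10) to -0.078 (without cow 5). The interaction was -0.40 ± 0.58 (SE) with all cows and -0.62 with the cow as a block, -1.33 ± 0.59 without cows 10 and 17 (edgeR adjusted p = 0.999, exact permutation p = 0.0357 over 8 cows) and -1.38 ± 0.72 without cows 10, 14 and 17 (adjusted p = 0.713, exact permutation p = 0.0952 over 7 cows). In that last comparison cows 5 and 8, both higher on HC, stood against 5 high-RFI cows that were all lower on HC. For FGFR2 in the Jerseys it was 0.11 ± 0.25 with all cows and -0.29 ± 0.22 without the 3, and so turned direction. Without cow 15 the Holstein interactions were -0.25 ± 0.46 for SOCS2 and 0.20 ± 0.20 for FGFR2, against -0.08 ± 0.42 and 0.18 ± 0.18 with it.

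In the Jerseys SOCS2 was lower at parity 3 than at parity 1, but the difference did not pass the threshold over all genes. The 4 Jerseys of parity 1 had cow means of 29.7 to 46.0 CPM (40.6 ± 7.53, SD), the 2 of parity 2 had 41.7 and 47.4, and the 4 of parity 3 had 14.2 to 31.4 (21.0 ± 7.59). The groups of parity 1 and 3 overlapped in 1 pair of cows, cow 18 with 29.7 and cow 4 with 31.4. Parity 3 minus parity 1 gave a log2 fold change of -0.92 ± 0.32 (SE), with an unadjusted p of 0.00978 and an edgeR adjusted p of 0.207. That fit takes the 2 libraries of a cow as separate samples, though parity belongs to the cow. The exact permutation test over these 8 cows gave a two-sided p of 0.0571, where the smallest it can give is 0.0286. Without cow 4, left out after its overlap was seen, the difference was -1.40. No overlap was left, so the exact permutation p of 0.0286, the smallest that 7 cows can give, followed from that choice and decides nothing. In the Holsteins, parity 1 had 41.1 ± 12.8, parity 2 had 28.3 ± 13.6 and parity 3 had 58.9 ± 30.9 CPM (SD, n = 3 each). Their log2 fold change was 0.42 ± 0.25 (edgeR adjusted p = 0.580), and the exact permutation p was 0.6, where 3 cows against 3 cannot go below 0.1. Neither gene was among the 0.383% of Holstein and 0.227% of Jersey genes that passed the threshold for parity.

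The effect of parity on SOCS2 in the Holsteins minus that in the Jerseys was 1.53 in log2 CPM, with an exact permutation p of 0.0400 over 14 cows and a Benjamini-Hochberg adjusted p of 0.525 over the family of 26 exact tests. Left out 1 at a time, the cows gave 1.16 to 1.96, and p rose above 0.05 when cow 2, 3, 5, 6, 13, 14, 16, 17 or 19 was left out, to 0.1014 at most. Without the 4 cows the value was 1.67 (exact permutation p = 0.0800). Without Jersey cow 3 the Jersey difference of parity 3 minus parity 1 was -0.84 (exact permutation p = 0.0857), and without the 4 cows the edgeR log2 fold change was -0.71 ± 0.46 (adjusted p = 0.659). The difference of the cow means without the 4 cows was -1.02 among the 6 Jerseys of these parities (exact permutation p = 0.200) and 0.64 among the 5 Holsteins (exact permutation p = 0.400). FGFR2 differed less between parities. Its cow means were 85.0 ± 10.7, 65.2 ± 12.1 and 89.0 ± 23.7 CPM in Holsteins of parity 1, 2 and 3 (SD, n = 3 each), and 77.1 ± 10.6, 75.5 ± 13.9 and 83.5 ± 8.93 in the Jerseys (n = 4, 2 and 4). For parity 3 minus parity 1 its log2 fold change was 0.00 ± 0.11 among Holsteins (edgeR adjusted p = 0.995) and 0.12 ± 0.13 among Jerseys (adjusted p = 0.758). These values were 0.04 ± 0.13 and 0.07 ± 0.13 without the 4 cows, and that of SOCS2 among Holsteins was 0.28 ± 0.29.

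**Figure D3:**
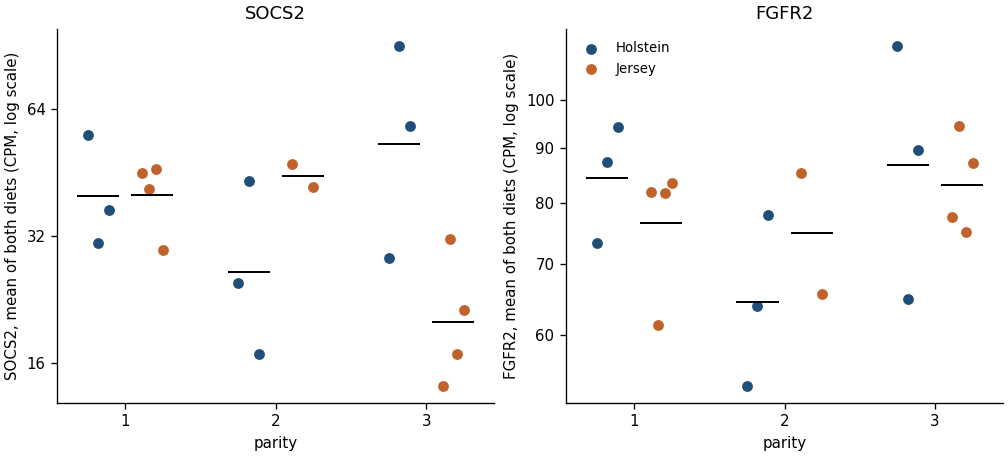
Mean of both diets for SOCS2 (left) and FGFR2 (right) by parity, in CPM on a log scale, with 1 point per cow and a bar at the mean of the log values. SOCS2 of the 4 Jerseys of parity 3 lies between 14.2 and 31.4 CPM, and that of the 3 Holsteins of parity 3 between 28.3 and 90.1.

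Breed was compared on the summed libraries of each cow. SOCS2 averaged 42.8 ± 22.4 CPM in the 9 Holsteins and 33.5 ± 12.6 in the 10 Jerseys (SD over cows), with cow means of 16.9 to 90.1 and 14.2 to 47.4. Holstein minus Jersey gave 0.36 ± 0.30 on the log2 scale (SE, adjusted p = 0.532 in edgeR), and exact permutation over the 19 cows gave p = 0.257. FGFR2 averaged 79.7 ± 18.1 and 79.4 ± 9.93 CPM, with a log2 fold change of -0.01 ± 0.10 (edgeR adjusted p = 0.983). Neither gene was among the 3.38% of genes that passed the threshold for breed. Without the 4 cows the value of SOCS2 was 0.86 ± 0.32 (edgeR adjusted p = 0.161), and without cows 10 and 17 it was 0.63 ± 0.28 (adjusted p = 0.298). The difference of the cow means, which was 0.39 over all 19 cows, moved less, to 0.55 (permutation p = 0.186) and 0.53 (permutation p = 0.166). FGFR2 was -0.04 ± 0.11 without the 4 cows, and its cow means differed by -0.03 (permutation p = 0.826).

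The crossover period was compared within cows, with the cow and the diet in the model. FGFR2 averaged 82.8 ± 16.4 CPM in period 1 and 76.3 ± 15.5 in period 2 (SD, n = 19 libraries each). It was lower in period 2 in 8 of 10 Jerseys and in 4 of 9 Holsteins. Period 2 minus period 1 gave a log2 fold change of -0.15 ± 0.07 (SE), with an unadjusted p of 0.0309, an edgeR adjusted p of 0.910 and an exact permutation p of 0.0606 with the order of the diets reassigned within breeds. Over the family of 26 exact tests the Benjamini-Hochberg adjusted p of that permutation test was 0.525. The exact permutation p was under 0.05 when cow 2, 8, 10 or 16 was left out (0.0167 to 0.0450). These cows were singled out after the values were seen, and those p-values are not adjusted. All 5 Jerseys that began on C had lower FGFR2 on HC, by 0.10 to 0.80 in log2 CPM, while 3 of the 5 that began on HC had higher FGFR2 on HC. SOCS2 averaged 38.1 ± 23.5 and 37.7 ± 19.1 CPM in periods 1 and 2, and its log2 fold change was -0.09 ± 0.19 (edgeR adjusted p = 0.976). No gene passed the threshold for period (0% called), with 639 of 12103 genes at an unadjusted p under 0.05 and 2 called by DESeq2. Without the 4 cows the edgeR value was -0.14 ± 0.07 for FGFR2 (adjusted p = 0.864, exact permutation p = 0.134) and -0.17 ± 0.19 for SOCS2.

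No relation between SOCS2 and FGFR2 was detected across cows. Over the cow means of log2 CPM, centred on the breed, Pearson's r was -0.11 (permutation p = 0.655) and Spearman's coefficient -0.10 (permutation p = 0.698) over 19 cows. Within breeds r was -0.13 in the Holsteins (exact permutation p = 0.734) and -0.09 in the Jerseys (permutation p = 0.808). The values without the 2 cows farthest from the median of SOCS2 were -0.17, 0.07 and -0.44 over all cows, the Holsteins and the Jerseys. With the 4 cows left out r was -0.06 over the 15 cows (permutation p = 0.840), -0.11 over the 8 Holsteins (exact permutation p = 0.793) and 0.04 over the 7 Jerseys (exact permutation p = 0.926). Cow 2, with the highest SOCS2 of the Holsteins, had 65.0 CPM of FGFR2, while cow 6, the next in SOCS2, had 89.6.

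The relation between the changes from C to HC depended on cow 14 in the Jerseys. Over all cows the HC minus C differences of SOCS2 and FGFR2 correlated with r = 0.22 (permutation p = 0.432, Spearman's coefficient = 0.24, permutation p = 0.353), with r = 0.06 in the Holsteins (exact permutation p = 0.890, Spearman's coefficient = -0.05, exact permutation p = 0.912) and r = 0.28 in the Jerseys (permutation p = 0.443, Spearman's coefficient = 0.42, permutation p = 0.232). Without the 2 cows farthest from the median of SOCS2 these were -0.12, -0.53 and -0.23, so r turned direction in all 3 and rested on those cows. In the Jerseys without cow 5, r was -0.06 (exact permutation p = 0.880) over 9 cows. In the Jerseys without cow 14, r was 0.78 (exact permutation p = 0.0120) and Spearman's coefficient 0.80 (exact permutation p = 0.0138) over 9 cows. Without cows 10, 14 and 17, r was 0.75 (exact permutation p = 0.0397) and Spearman's coefficient 0.71 (exact permutation p = 0.0881) over 7 cows. The 2 cows farthest from the median of SOCS2 carried part of the values without cow 14. With those 2 also left out, r was 0.52 among Jerseys other than cow 14. It was 0.30 among those other than cows 10, 14 and 17. In the Holsteins without cow 15, r was -0.08 (exact permutation p = 0.842). Over the 15 cows r was 0.46 (permutation p = 0.0945) and 0.02 without the 2 farthest. These exclusions were chosen after seeing the data, and none of the 8 relations with all cows passed the Benjamini-Hochberg adjustment (lowest adjusted p = 0.953 for Pearson's r).

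**Figure D4:**
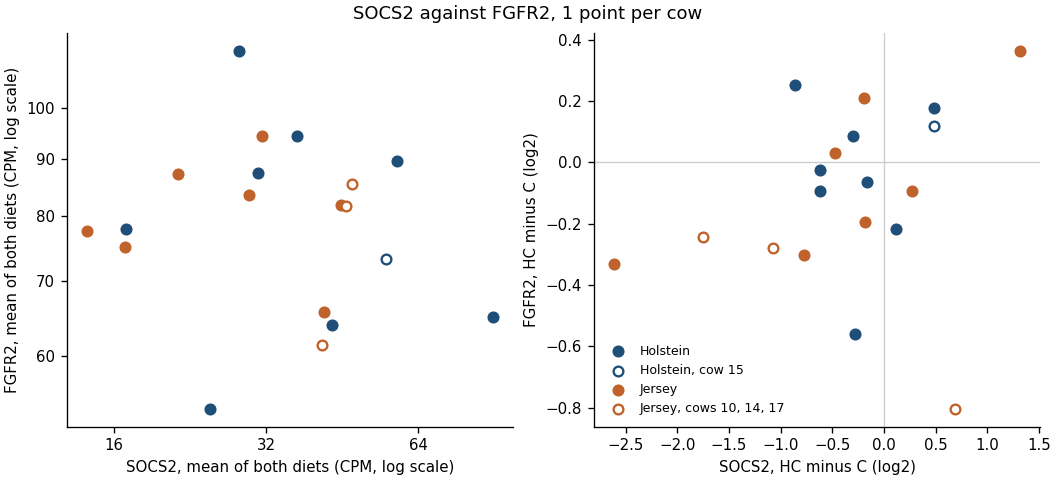
SOCS2 against FGFR2 with 1 point per cow, as the mean of both diets in CPM on log scales (left) and as the HC minus C difference in log2 CPM (right). Open points are cows 10, 14, 15 and 17, whose libraries did not match each other, and cow 14 lies apart at the lower right with a FGFR2 difference of -0.80.

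Likeness to each gene was measured as Pearson's r over the 19 cow means of log2 CPM centred on the breed, and it is a description with no test. Over the 11826 other genes that passed in both breeds, the middle 95% of r lay between -0.42 and 0.49 for SOCS2 and between -0.49 and 0.48 for FGFR2. Of the 73 other genes with a symbol, which the study had mostly listed for RFI in these cows, ACOT8, a peroxisomal acyl-CoA thioesterase, was the most like SOCS2 (r = 0.63), followed by LYZ, which encodes lysozyme (0.50), RYR1, a calcium release channel (0.49), FOSL2, a transcription factor of the AP-1 family (0.46), and PKDREJ (0.45). The least like were TMEM98 (-0.47), SELP, which encodes P-selectin (-0.44), KIAA1462 (-0.37), PCSK6, a proprotein convertase (-0.37), and CHRNE, a subunit of the muscle acetylcholine receptor (-0.36). Without a symbol, ENSBTAG00000025340 reached 0.82 and ENSBTAG00000002025 reached -0.78, the highest and the lowest of all genes. Within breeds, PKDREJ had r of -0.11 among Holsteins and 0.71 among Jerseys and CHRNE had -0.67 and 0.11, so both turned direction, while TMEM98 had -0.17 and -0.67 and KIAA1462 had -0.65 and -0.10. Over the 15 cows the 5 genes most alike had r of 0.42 to 0.67 and the 5 least alike -0.54 to -0.33. ACOT8 kept r = 0.67 without the 4 cows, but its HC minus C differences had r = -0.24 with those of SOCS2.

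For FGFR2, the genes most alike were SLC20A1, a sodium-phosphate cotransporter (r = 0.74), ANXA5, an annexin (0.72), FICD, an enzyme that modifies the chaperone BiP in the endoplasmic reticulum (0.72), CTH, the cystathionine lyase of cysteine synthesis (0.70), and RND3 (0.63). These values came mostly from the Holsteins, where r was 0.80 to 0.94, against 0.02 to 0.47 in the Jerseys. Most genes with a symbol were listed by the study from the Holstein RFI contrast that also gave FGFR2. The r of these 5 genes in the Holsteins is therefore not independent of that choice. Of the 5, SLC20A1 and RND3 were also alike in their HC minus C differences, with r of 0.63 and 0.74, while FICD had 0.25, CTH -0.33 and ANXA5 -0.40. The least alike were CYP7A1 (-0.89), CCDC109B, a subunit of the mitochondrial calcium uniporter (-0.74), NKG7, a marker of cytotoxic lymphocytes (-0.71), SLA (-0.66) and HCLS1 (-0.63), the last 2 known from haematopoietic cells. Apart from CYP7A1, these genes had r of -0.87 to -0.76 in the Holsteins, against -0.46 to -0.31 in the Jerseys. Their HC minus C differences had r of -0.34 (CCDC109B) to -0.05 (NKG7) with those of FGFR2. The limit from the choice in the Holstein contrast holds for these genes too. Over the 15 cows r was 0.67 to 0.77 for the 5 genes most alike and -0.90 to -0.59 for the 5 least alike. NKG7 was 13.2 ± 2.05 CPM in high-RFI Holsteins, which had less FGFR2, against 9.34 ± 1.31 in low-RFI ones (SD of cow means), and 8.83 ± 1.75 against 9.62 ± 1.10 in Jerseys. CD3D was 4.97 ± 0.47 against 3.22 ± 0.70 CPM in Holsteins and 3.27 ± 0.19 against 4.42 ± 1.53 in Jerseys, and its r with FGFR2 was -0.39. NKG7 and CD3D had symbols only through the study's lists for RFI, and neither is in its Jersey list. Their Holstein differences are thus from the contrast that chose them and are a description only. The part of these cells in the level of FGFR2 was not tested.

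CYP7A1, the rate-limiting enzyme of bile acid synthesis, was the gene least like FGFR2 of all 11826 genes, with or without a symbol. Its cow means ran from 68.5 CPM in Holstein cow 1, which had the highest FGFR2 of all cows (112 CPM), to 635 in Holstein cow 7, which had the lowest (53.8 CPM). Among the Jerseys, cow 4 had the lowest CYP7A1 (92.0 CPM) and the highest FGFR2 (94.4), and cow 14 the highest CYP7A1 (352) and the lowest FGFR2 (61.3). Pearson's r was -0.93 over the 9 Holsteins and -0.79 over the 10 Jerseys, -0.81 over all cows when centred on breed and RFI group together, and -0.90 over the 15 cows left without cows 10, 14, 15 and 17. CYP7A1 is itself one of the genes that the study listed from these cows, and it averaged 327 ± 206 CPM in high-RFI against 124 ± 80.5 in low-RFI Holsteins, and 203 ± 92.3 against 208 ± 82.7 in the same groups of Jerseys.

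Within cows r was nearer to 0 than over the cow means. CYP7A1 and FGFR2 moved in opposite directions between C and HC in 12 of 19 cows, and r of the differences was -0.42 over all cows (permutation p = 0.0794, Spearman's coefficient = -0.32, permutation p = 0.195), -0.19 in the Holsteins (exact permutation p = 0.649, Spearman's coefficient = 0.07, exact permutation p = 0.880) and -0.60 in the Jerseys (permutation p = 0.0630, Spearman's coefficient = -0.60, permutation p = 0.0738). Without the 2 cows farthest from the median of CYP7A1, r was -0.29 over the 19 cows. Without the 4 cows it was -0.26 (permutation p = 0.381, Spearman's coefficient = -0.21, permutation p = 0.455). In the Jerseys r was -0.76 without cows 10 and 17 (exact permutation p = 0.0296) and -0.26 without cow 14 (exact permutation p = 0.497). This relation was picked after seeing the data. SOCS2 had r = 0.02 with CYP7A1 over the cow means.

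**Figure D5:**
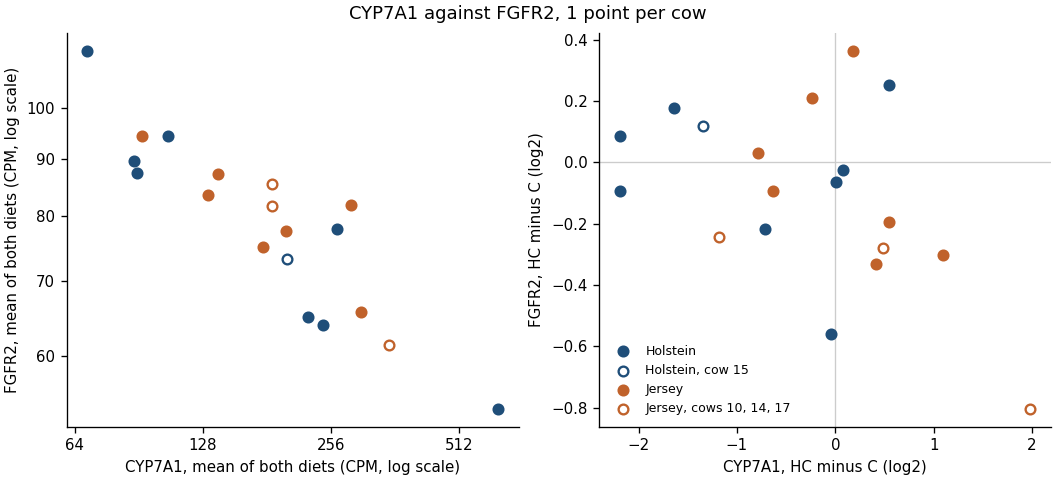
CYP7A1 against FGFR2 with 1 point per cow, as the mean of both diets in CPM on log scales (left) and as the HC minus C difference in log2 CPM (right). In both breeds, cows with a higher mean of CYP7A1 tended to have a lower mean of FGFR2. The cow means run from cow 1 with 68.5 CPM of CYP7A1 and 112 of FGFR2 to cow 7 with 635 and 53.8, while the differences within cows scatter more widely.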

How the data were processed

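The authors trimmed the paired reads of stranded poly(A) libraries, aligned them with STAR to UMD3.1 with the Ensembl annotation and deposited whole-number counts of read pairs per gene from HTSeq, neither normalized nor filtered (STAR 2.3.0 per the submitters' processing notes). The rows that name no gene held 20.1 to 25.1% of the read pairs and were left out. The genes, lists and comparisons were chosen with earlier results of these data known. The crossover period, the RFI value and the block of each cow came from the study's methods and cow table, the other groups from the labels. The label High for feed efficiency was taken as low-RFI. In the cow table of the study a column headed RFI group reads High for these same cows, most of whose RFI values were negative, so its words run opposite to the group names used here.

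Genes were kept at 1 CPM or more in 8 or more Holstein libraries (12025 genes) or 10 or more Jersey libraries (11905), and 12103 genes in either breed entered the fits of breed and period. Each breed was fitted with parity, diet and RFI group, and the interaction was added in a separate fit, in edgeR 4.0.16 (R 4.3.3, TMM, quasi-likelihood, two-sided). Period was fitted with the cow as a block. The SE is the absolute log2 fold change over the square root of F. Alternatives used limma 3.58.1 and DESeq2 1.42.0. The libraries of a cow are paired by the cow number in the labels and entered the main fits of RFI, diet and parity without a block, so those of RFI and parity treat them as separate samples, and in the check of their deviations from group means the paired libraries had r of 0.21 to 0.59 in the Holsteins and -0.11 to 0.61 in the Jerseys. No 2 libraries agreed within sampling noise (chi-square per degree of freedom of 10.4 or more, where sampling noise gives about 1). Exact tests, two-sided, permuted cows on log2 CPM with a prior count of 2, and correlations with 10 or more cows used 100000 resamples (scipy 1.17.1). The p-values of the exact and permutation tests and of the breed fit measure the spread between these cows. Those of the main fits of RFI, diet, parity and the interaction measure the spread between libraries, and those of period the spread within cows. There was 1 biopsy per cow and diet. The fits were tested on simulated data.

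The genes named were SOCS2, FGFR2 and, for each, the 5 genes with a symbol that had the highest and the 5 that had the lowest r over cow means, with genes of the growth hormone and fibroblast growth factor lists, which could not be paired. Of the marker lists, 3 of 54 symbols could be paired. The 2 genes without a symbol were chosen after their values were seen. Symbols came from the study's supplementary lists. Coordinates and sequences were not used here.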

Additional observations from a re-analysis of the deposited data

Results flagged for a closer look

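In the exact test, the effect of parity on SOCS2 differed between the breeds by 1.53 in log2 CPM (Holstein minus Jersey, exact permutation p = 0.0400, Benjamini-Hochberg adjusted p = 0.525), and all 4 Jerseys of parity 3 were below the mean of those of parity 1. It was past 0.05 without cows 14 and 15 (1.75, exact permutation p = 0.0486) and not without cows 10 and 17 (1.48, exact permutation p = 0.0600).

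A single value far from the others of its group was found in 4 of 44 groups, by its gap in CPM or log2 difference to the next value over the range of the group. These groups share cows and libraries, so the rate of about 1 in 20 for a single group does not apply to that count. The library labelled Jersey 14 on HC gave the highest SOCS2 of the low-RFI Jerseys on HC (51.1 CPM, the next being 29.7) and the lowest FGFR2 (44.6 CPM, the next being 73.9). With it, cow 14 had the lowest cow mean of FGFR2 among the Jerseys of parity 1 (61.3 CPM, the next being 81.7). This library was in the same state as the one labelled Holstein 15 on C in 54 of 55 on-off genes. The other value was FGFR2 of the low-RFI Holstein cow 11 on HC (72.0 CPM, the next being 88.8).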

How the results depend on the processing

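In the edgeR, limma and DESeq2 fits of diet, parity, breed, period, the interaction and RFI in the Jerseys, no alternative run brought either gene past the threshold. In the Holstein RFI contrast, which chose the genes, DESeq2 called both (SOCS2 0.91, adjusted p = 0.00774, and FGFR2 -0.46, adjusted p = 0.00248), and edgeR called FGFR2 without the parity term (-0.54, adjusted p = 0.0480) and without cow 1 (-0.41, adjusted p = 0.0403). Of 251 values under settings other than single cows left out, 21 turned direction, and where not said otherwise the cause was not tested. Pairing cows within blocks, chosen after seeing the data, kept the direction of 6 exact tests. With 4 or 5 pairs no p could go below 0.05, nor could Jersey differences change. With the pairing of libraries as a replicate block, no call on either gene changed. Its log2 fold changes for diet were -0.17 (SOCS2) and -0.0078 (FGFR2) for Holsteins, -0.40 and -0.11 for Jerseys, and FGFR2 turned to -0.010 for parity in the Holsteins (-0.0011 with no limit on low counts).

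Without cows 10, 14, 15 and 17, SOCS2 for RFI in the Jerseys was 0.23, FGFR2 for diet in the Jerseys was 0.028 (0.029 with the block), its interaction in the Jerseys was -0.29, and its diet effect by breed was -0.011. Without cows 10 and 17, SOCS2 for RFI in the Jerseys was 0.091 and FGFR2 for breed 0.054. Without cows 14 and 15, FGFR2 in the Jerseys was -0.042 for RFI and -0.031 for the interaction. Fitted on RFI values rather than groups, FGFR2 in the Jerseys was -0.017, and its r with the RFI value was 0.051 on TMM-scaled CPM and 0.18 without cows 10 and 17. The r of SOCS2 with FGFR2 over cow means, centred on breed and RFI group, was 0.15 over all cows and 0.50 in the Holsteins. In the Jerseys it was 0.34 centred on breed and parity, 0.11 without cow 14 and 0.044 without cows 10, 14 and 17. Between diets r was 0.51 over both breeds without cows 14 and 15, -0.082 in the Holsteins without cow 15, and 0.78 and 0.75 in the Jerseys without cow 14 and without cows 10, 14 and 17. The difference of SOCS2 by parity between breeds was 1.48 without cows 10 and 17 and 1.67 without the 4 cows.

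With each cow left out in turn, FGFR2 for RFI in the Holsteins ran from -0.51 to -0.37 and SOCS2 from 0.76 to 1.08. Ranges that crossed 0 were -0.066 to 0.064 for diet and -0.097 to 0.089 for parity (FGFR2, Holsteins), -0.25 to 0.19 for the interaction (SOCS2, Holsteins), -0.30 to 0.056 (SOCS2) and -0.042 to 0.17 (FGFR2) for RFI in the Jerseys, -0.031 to 0.27 for the interaction (FGFR2, Jerseys), -0.071 to 0.051 for breed (FGFR2), -0.17 to 0.023 for period (SOCS2), and -0.28 to 0.10 for parity by breed (FGFR2). The r of SOCS2 with FGFR2 ran from -0.44 to 0.077 (Holsteins) and -0.18 to 0.11 (Jerseys) over cow means, and from -0.023 to 0.52 (both breeds), -0.14 to 0.38 (Holsteins) and -0.058 to 0.78 (Jerseys) between diets. The r with the RFI value in the Jerseys ran from -0.61 to 0.014 (SOCS2) and -0.20 to 0.13 (FGFR2). Among ranges on 1 side of 0, those of SOCS2 were 0.11 (without cow 6) to 0.70 (without cow 1) for parity in the Holsteins, -0.82 (without cow 10) to -0.078 (without cow 5) for the interaction in the Jerseys, 0.16 (without cow 2) to 0.54 (without cow 10) for breed, -0.30 (without cow 16) to -0.091 (without cow 2) and -0.53 (without cow 5) to -0.21 (without cow 10) for diet among Holsteins and Jerseys, -1.23 to -0.78 for parity in the Jerseys, and 0.049 (without cow 3) to 0.49 (without cow 5) for diet by breed. Those of FGFR2 were 0.039 (without cow 1) to 0.30 (without cow 16) for the interaction in the Holsteins, -0.16 (without cow 5) to -0.038 (without cow 14) for diet and 0.0044 (without cow 14) to 0.17 (without cow 17) for parity in the Jerseys, -0.19 to -0.11 for period and 0.057 to 0.19 for diet by breed. The r of SOCS2 with FGFR2 over all cow means ran from -0.27 to -0.0066.

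The number of genes called depended strongly on the fit. Over the alternatives other than single cows left out it ran from 0 to 61 for RFI in the Holsteins (8 in the fit reported), 48 to 345 for diet in the Holsteins (94), 1 to 199 for parity in the Holsteins (46), 0 to 21 for RFI in the Jerseys (4), 0 to 196 for diet in the Jerseys (44), 0 to 269 for parity in the Jerseys (27) and 72 to 871 for breed (409). With single cows left out the counts ran from 4 to 16, 15 (without cow 1) to 135 (without cow 7), 7 (without cow 16) to 87 (without cow 15), 1 to 6, 3 (without cow 4 or 17) to 51 (without cow 13), 3 (without cow 3 or 18) to 98 (without cow 8) and 192 (without cow 2) to 757 (without cow 14) in the same order, and stayed at 0 for the interaction in each breed and for period.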
